A study of Mus musculus with 1989 samples.

Results

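The DNA replication machinery genes, a list of 50 names, were followed through mouse thymocyte development and around the cell cycle. The list was a choice by function, and 47 of the 50 had a row among the 8846 genes of the single-cell RNA sequencing (scRNA-seq) table. It held 9 origin licensing genes (Orc1 to Orc6, Cdc6, Cdt1 and Gmnn), 12 helicase genes (Mcm2 to Mcm7, Mcm10, Cdc45 and Gins1 to Gins4) and 9 polymerase and primase genes (Pola1, Pola2, Prim1, Prim2, Pold1 to Pold3, Pole and Pole2). A further 7 made the sliding clamp and its loader (Pcna, Pclaf and Rfc1 to Rfc5) and 5 served nucleotide supply (Dut, Rrm1, Rrm2, Tyms and Tk1). Fen1 and Lig1 process the lagging strand, and Slbp, Ccne1 and Ccne2 act at entry into S phase or on histone mRNA. Rpa1, Rpa2 and Rpa3, which code for the protein that coats single-stranded DNA, were not analysed here in scRNA-seq. By the gene annotation the 50 loci lie on 14 autosomes and the X chromosome.

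The thymocytes came from male C57BL/6 mice of 7 weeks by the sample labels, with no transgene or treatment named for any sample. A single droplet library of 1993 thymocytes was measured by scRNA-seq, and thymocytes sorted as CD4/CD8 double-negative (DN), double-positive (DP), CD4 or CD8 cells were measured by single-cell ATAC sequencing (scATAC-seq), which counts fragments of open chromatin. No animal was named for any cell, so the RNA library and each sort counted as 1 sample. Cells are not replicates, so no test and no p-value was computed, and every interval given is a 95% interval that covers counting error only.

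Replication is prepared in G1, when the origin recognition complex, Cdc6 and Cdt1 load the Mcm2–7 ring onto DNA, and geminin (Gmnn) later blocks reloading. Cyclin E activity starts S phase, Cdc45 and the GINS complex turn the ring into a moving helicase, primase and the polymerases copy the strands, and the replication factor C complex loads the Pcna clamp that holds polymerases on DNA. Thymocytes that pass β-selection divide in a burst as immature single-positive (ISP) cells and DP blasts (DPbla) before they stop and rearrange the T cell receptor α locus (DPre).

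Promoter sequence was a feature that the choice of genes did not use, and E2f factors are known regulators of many genes needed in S phase. RefSeq promoter windows (GRCm38.p6, 250 bases before to 50 after a start) matched 41 of the 50 members by symbol, with 49 windows in all. Those of Mcm4, Gins1, Gins2, Gins4, Rfc2, Pole, Prim2, Ccne2 and Gmnn had no match. Each window was searched on both strands for the 4 E2f words TTTGGCGC, TTTCCCGC, TTTGCCGC and TTTCGCGC, which can overlap one another. Of the 41 genes, 16 (39.0%) held a word, against 704 of 27025 genes (2.61%) over all windows of this length. Among the matched helicase genes 5 of 8 held one (Gins3, Mcm3, Mcm5, Mcm6 and Mcm7), as did 4 of 8 licensing genes (Cdc6, Cdt1, Orc1 and Orc3) and 4 of 7 polymerase genes (Pola1, Pold1, Pold3 and Pole2). The clamp group held 2 of 6 (Pclaf and Rfc3) and the lagging strand group, here with Rpa1 to Rpa3, 1 of 5 (Lig1), while 0 of 5 nucleotide supply genes and 0 of 2 entry genes held any of the 4 words. With the shorter words TTGGCGC or TTCCCGC, 22 of the 41 genes matched, against 7.79% of all genes, among them 5 of 8 helicase, 4 of 6 clamp group and 1 of 5 nucleotide supply genes (Rrm1). The counts of the groups thus depend on the words. The CCAAT box (CCAAT on either strand), a common promoter element searched beside them, was in 25 of the 41 members (61.0%) and in 41.1% of all genes. A match is a description of letters and was not tested as a binding site.

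The windows of 8 members are shown because they come from groups with and without the 4 words, whose timing in the cell cycle is compared later. They are written 5′ to 3′ on the strand of the gene, in lower case, with every E2f word, or its reverse complement, in capitals. Positions count from the start base as 1.
Mcm5: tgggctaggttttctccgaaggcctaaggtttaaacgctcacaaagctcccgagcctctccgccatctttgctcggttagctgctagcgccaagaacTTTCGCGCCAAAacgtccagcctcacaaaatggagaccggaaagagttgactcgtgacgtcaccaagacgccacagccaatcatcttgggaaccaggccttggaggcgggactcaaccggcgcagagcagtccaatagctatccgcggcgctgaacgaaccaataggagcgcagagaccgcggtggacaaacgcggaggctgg
Mcm6: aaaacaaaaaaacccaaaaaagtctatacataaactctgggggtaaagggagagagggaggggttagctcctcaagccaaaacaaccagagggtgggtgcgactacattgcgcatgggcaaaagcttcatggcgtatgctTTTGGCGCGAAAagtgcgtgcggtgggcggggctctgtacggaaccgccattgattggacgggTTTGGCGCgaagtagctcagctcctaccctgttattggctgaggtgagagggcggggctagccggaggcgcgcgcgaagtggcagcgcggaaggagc
Pola1: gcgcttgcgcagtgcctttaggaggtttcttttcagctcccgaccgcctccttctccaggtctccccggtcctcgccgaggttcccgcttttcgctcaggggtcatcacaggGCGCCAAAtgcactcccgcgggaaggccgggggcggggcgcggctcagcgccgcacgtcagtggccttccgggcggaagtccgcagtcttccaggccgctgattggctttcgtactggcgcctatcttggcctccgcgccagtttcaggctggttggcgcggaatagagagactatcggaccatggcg
Pclaf: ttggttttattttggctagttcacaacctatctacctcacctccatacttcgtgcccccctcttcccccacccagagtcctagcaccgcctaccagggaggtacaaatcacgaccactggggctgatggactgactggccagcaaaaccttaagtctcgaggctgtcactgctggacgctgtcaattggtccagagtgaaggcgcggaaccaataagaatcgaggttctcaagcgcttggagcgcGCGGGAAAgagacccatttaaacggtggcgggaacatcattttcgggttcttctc
Rfc3: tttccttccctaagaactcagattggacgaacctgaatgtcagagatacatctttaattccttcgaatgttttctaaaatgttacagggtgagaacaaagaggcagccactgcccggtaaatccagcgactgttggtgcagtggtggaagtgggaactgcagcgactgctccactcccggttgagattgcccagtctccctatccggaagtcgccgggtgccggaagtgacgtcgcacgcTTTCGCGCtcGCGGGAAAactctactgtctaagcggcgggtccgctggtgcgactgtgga
Rrm2: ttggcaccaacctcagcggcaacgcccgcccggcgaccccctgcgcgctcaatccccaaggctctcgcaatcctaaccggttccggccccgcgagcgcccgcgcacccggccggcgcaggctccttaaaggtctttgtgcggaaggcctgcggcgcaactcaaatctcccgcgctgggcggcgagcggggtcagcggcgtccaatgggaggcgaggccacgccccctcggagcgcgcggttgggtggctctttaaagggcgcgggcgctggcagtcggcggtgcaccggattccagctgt
Tyms: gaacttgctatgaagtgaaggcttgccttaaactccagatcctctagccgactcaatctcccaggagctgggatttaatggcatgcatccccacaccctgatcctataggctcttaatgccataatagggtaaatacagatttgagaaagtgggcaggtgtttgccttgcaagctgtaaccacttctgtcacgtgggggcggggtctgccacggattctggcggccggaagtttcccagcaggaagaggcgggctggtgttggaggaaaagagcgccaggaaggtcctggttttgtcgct
Pcna: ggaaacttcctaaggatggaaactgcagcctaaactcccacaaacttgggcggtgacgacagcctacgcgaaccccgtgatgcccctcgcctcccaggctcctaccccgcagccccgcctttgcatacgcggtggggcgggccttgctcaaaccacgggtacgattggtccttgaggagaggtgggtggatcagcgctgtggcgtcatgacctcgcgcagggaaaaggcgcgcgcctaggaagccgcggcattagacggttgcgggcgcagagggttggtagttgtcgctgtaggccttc
The Mcm5 window (chr8:75109259-75109558, plus strand) held 2 overlapping words, one on each strand. In the Mcm6 window (chr1:128359656-128359955, minus strand) there were 3 words, an overlapping pair on opposite strands and one nearer to the start, at −47. Pola1 (chrX:93632106-93632405, minus strand), which codes for the catalytic subunit of polymerase α, held 1 word. Pclaf (chr9:65890073-65890372, plus strand) held 1 word at −5, and Rfc3 (chr5:151651159-151651458, minus strand) held 2, at −10 and 1. None of the 4 words was in the windows of Rrm2 (chr12:24708004-24708303, plus strand), Tyms (chr5:30073576-30073875, minus strand) or Pcna (chr2:132253131-132253430, minus strand). The windows of the helicase genes Mcm2, Mcm10 and Cdc45, which are not shown, held none of the 4 words either. No match says only that these letters are not in these windows. Whether the words go with timing in the cycle was not tested.

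For the RNA results, the cells were clustered without the members and named from marker genes, which gave 78 DN-like, 318 ISP-like, 400 DPbla-like, 428 DPre-like, 328 DPsel-like (DP cells under selection), 224 CD4sp-like, 150 CD8sp-like, 31 NCL-like (nonconventional lymphocytes) and 36 APC-like (antigen-presenting) cells. ISP-like and DPbla-like cells, in whose clusters most cells had Mki67 above 0, are called blasts. Their naming was not equally firm. In the ISP-like cluster 9 (108 cells) the ISP and DPbla marker scores were close, at 0.36 and 0.21. Its mean log2 values of Cd4, Cd8a, Rag1 and Myc were 0.45, 2.3, 0.97 and 0.086. These lay nearer to the DPbla-like cluster 8 (0.54, 2.8, 0.94 and 0.036) than to the ISP-like cluster 1 (0.17, 1.5, 0.57 and 0.50). By these genes the ISP name of cluster 9 is doubtful. The DPbla-like cluster 10 (98 cells) scored highest for DPre markers. Detected genes per cell had a median of 2914 in the ISP-like class, 2224 in the DPbla-like class and 1228 in the DPre-like class, so shares of cells are given after each cell was thinned to 1300 steps. A step is the place of a value when the different values of a cell are put in order, and stands in for a molecule. Summed log2 markers of erythroid (2 of 5 measured), epithelial (3 of 5) and macrophage cells (3 of 5) averaged from 0.018 to 0.10 in early and late blasts. The 8 of 9 measured APC markers summed to 1.21 in early and 1.41 in late blasts, against 1.22 in DPre-like and 21.7 in APC-like cells.

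Replication genes were high in the blasts and low in every other stage. Over all 47 measured members, the median cell had 11 members left after thinning in the ISP-like and 8 in the DPbla-like class, 3 in DN-like cells, and 2 in each of the DPre-like, DPsel-like, CD4sp-like, CD8sp-like, NCL-like and APC-like classes. A member was called higher where its mean log2 value was at least 0.2 above that of the other group and it was above 0 in at least 10% of cells of either group. Between blasts and DPre-like cells, 25 of the 46 members that passed this filter were higher in blasts, against a background of 13.5% of the 6638 genes tested. None was lower, against a background of 2.32%, and 21 lay within 0.2. With every cell thinned to 1300 steps, 13 were higher, against 7.44% of all genes. Orc1 did not pass the filter. The median difference of the tested members was 0.23 on the log2 scale, and that of all genes tested was 0.0019. All 7 clamp and loader genes, all 5 nucleotide supply genes, Fen1 and Lig1 were higher in blasts, as were 6 of 12 helicase genes, 2 of 8 licensing genes (Gmnn and Orc6), 1 of 9 polymerase genes (Prim1), and Slbp and Ccne2.

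**Figure D1:**
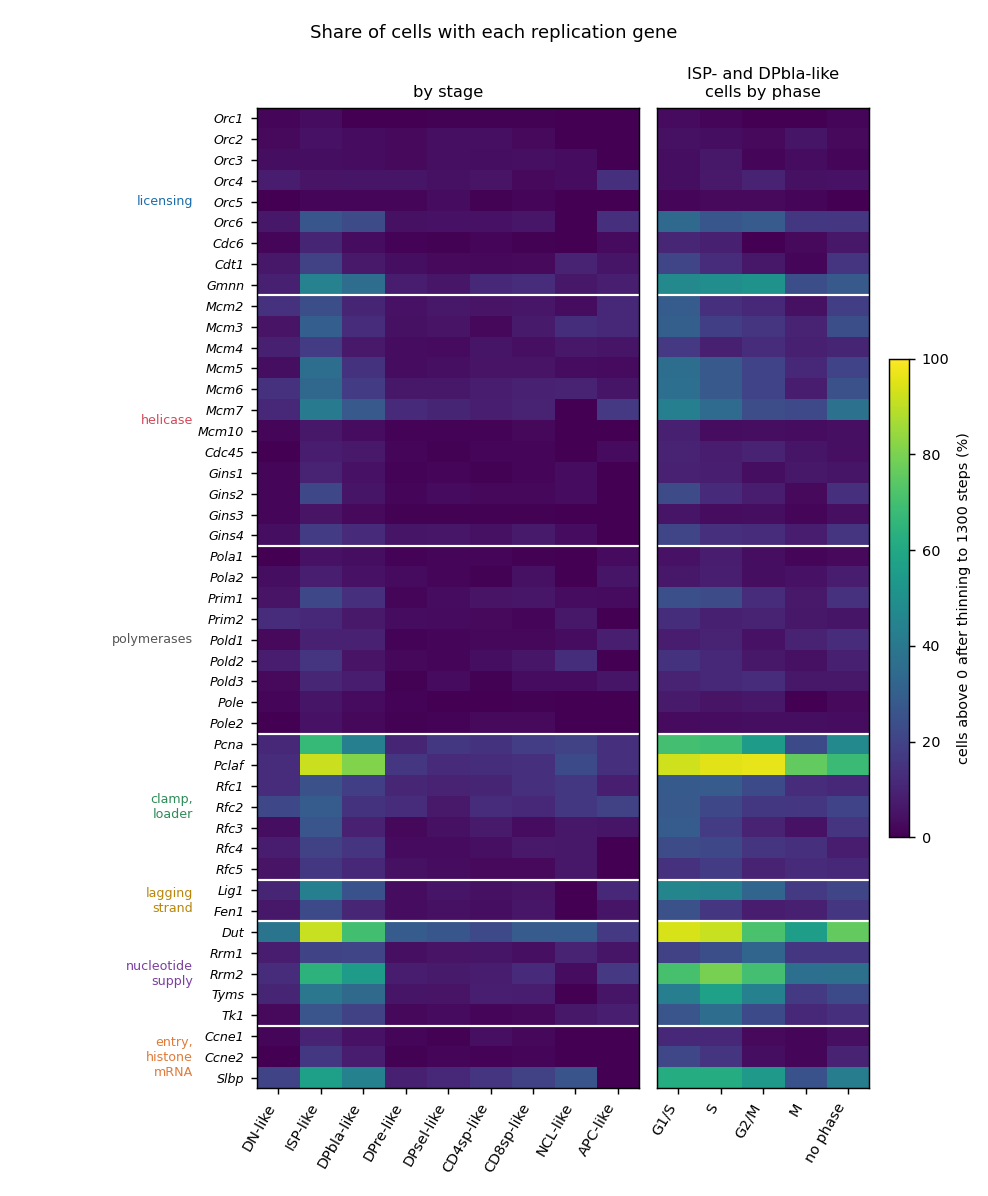
Share of cells (%, colour) with each of the 47 measured replication genes above 0 after thinning to 1300 steps, with genes in rows by functional group, the 9 stages in the left panel, and the 4 phases and phase-less cells of the ISP- and DPbla-like blasts in the right panel. Pclaf was seen in 91.8% of ISP-like, 81.0% of DPbla-like and 15.9% of DPre-like cells, and the M column is darker than the G1/S column for most rows.

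The size of a log2 difference followed the level of a gene, so folds of thinned steps per cell are given beside it. The clamp gene Pcna had mean log2 values of 2.06 in the ISP-like, 1.2 in the DPbla-like, 0.17 in the DPre-like and 0.24 in the DPsel-like class, with 67.0%, 43.0%, 10.3% and 16.2% of cells above 0 after thinning (97.8%, 74.5%, 18.7% and 25.0% before). Its steps were 8.58-fold higher in blasts than in DPre-like cells (6.42 to 11.7). Among the widest gaps was that of Pclaf, whose product binds Pcna: 14.6-fold more steps in blasts (11.7 to 18.4), and mean log2 values of 3.14 in the ISP-like class, 2.66 in the DPbla-like class and 0.27 in the DPre-like class. Rrm2, the small subunit of ribonucleotide reductase, was 13.9-fold higher (9.99 to 20.0), with mean log2 values of 1.79, 1.60 and 0.11 in the same order. Lig1, the ligase that joins Okazaki fragments, was likewise 13.9-fold higher, with a wider interval (8.18 to 25.8) from 14 steps in DPre-like cells. By contrast Dut, the dUTPase that keeps uracil out of DNA, was still seen in 29.2% of DPre-like cells after thinning (39.5% before), and its fold was 5.52 (4.66 to 6.57). Mcm7 had 12.4% of DPre-like cells above 0 and a fold of 3.40 (2.55 to 4.62).

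Groups with the larger log2 differences did not all have the larger folds. Nucleotide supply differed by 1.07 in mean log2 between blasts and DPre-like cells and the clamp group by 0.79, with folds of 7.40 (6.49 to 8.48) and 7.43 (6.58 to 8.43). Entry genes (log2 difference 0.52) and lagging strand genes (0.55) had folds of 9.32 (6.98 to 12.7) and 8.53 (5.96 to 12.6), whose intervals overlap those of the nucleotide and clamp groups. Licensing at 3.82 (3.18 to 4.63) and the helicase at 4.39 (3.79 to 5.09) lay below the nucleotide and clamp groups beyond their counting intervals, and the polymerases, with a log2 difference of only 0.11, had a fold of 5.17 (3.99 to 6.81). These sums lean on abundant genes. Pclaf holds 58.3% of the clamp group's steps in blasts, and without it the fold was 4.42 (3.8 to 5.15), which overlaps those of the helicase and of licensing. Without Dut, with 46.6% of the steps of its group, nucleotide supply had 10.5 (8.52 to 13.2), and without Gmnn, with 45.4%, licensing had 2.86 (2.30 to 3.60). All members together had 6.30-fold more steps in blasts (5.90 to 6.73). Orc2 to Orc5 did not differ beyond counting error. Their folds were 1.63 (0.792 to 3.60), 1.41 (0.673 to 3.16), 0.930 (0.549 to 1.60) and 0.894 (0.336 to 2.52). Steps understate genes with many molecules in a cell, since only values present in the cell are ranked and levels that no gene holds are skipped.

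Outside the blasts the level was low but not equal between classes. DPre-like and DPsel-like cells had all-member steps in a ratio of 0.985 (0.896 to 1.08), and DN-like cells had 1.68-fold more than DPre-like cells. Thinned steps per cell over all members were 2.35 in the DPre-like, 2.64 in the CD4sp-like and 3.29 in the CD8sp-like class. Polymerase steps per cell were 0.15 in DPre-like and 0.29 in CD8sp-like cells, and clamp group steps 0.65 and 0.98. In antigen-presenting cells, a different lineage at a median of 1486 detected genes, 13.9% of cells were above 0 for Pclaf and for Pcna after thinning, close to the DPre-like shares of 15.9% and 10.3% at a median of 1228. These APC-like cells number only 36. Before thinning, 27.8% of them had Mki67 above 0, against 8.26% and 10.1% in the 2 DPre-like clusters. Whether shares at that level are background or low expression was not tested. Cells with a cycle phase outside the blasts stood apart: these 28 cells had a median of 8.5 members after thinning, against 2 in the 1247 cells with no phase, at medians of 2663 and 1254 detected genes. Of them 7 were DN-like (median 9 members), 8 were CD4sp-like (median 11) and 8 were CD8sp-like (median 8.5).

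Timing in the cycle was read from phases called without any member. Each cell was scored for G1/S, S, G2/M and M lists of 17, 41, 31 and 28 measured genes, and took the phase with the highest z score if it was above 1. No M/G1 list was used, unlike in the study, so cells between M and G1/S were called as another phase or as none. Of the 718 blasts, 593 had a phase: 197 in G1/S, 157 in S, 80 in G2/M and 159 in M. Median detected genes were 2583, 2433, 2458 and 2404 in that order. Of genes that are no members, E2f1 stood at mean log2 values of 0.43 in G1/S and 0.11 in S, the histone gene Hist1h2ap at 3.40 and 6.34 in the same phases, and the mitotic cyclin gene Ccnb1 at 0.92 in G2/M and 1.55 in M. These check genes belong to the lists that set the phases. Stage and phase were mixed, since 159 of the 197 G1/S cells were ISP-like and 141 of the 159 M cells were DPbla-like, so values within each stage are given too. Of these ISP-like G1/S cells, 72 came from cluster 9, whose name was not firm.

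Early cells (G1/S or S, 354 cells) had more replication gene RNA than late cells (G2/M or M, 239 cells). Of the 46 members tested, 23 were higher early, against a background of 3.47% of 7039 genes, 0 were lower, against 3.07%, and 23 lay within 0.2. Their median difference was 0.21 on the log2 scale, against -0.00012 for all genes tested. The higher ones were 5 of 7 clamp and loader genes (all but Rfc4 and Rfc5), 4 of 5 nucleotide supply genes (all but Rrm1), 6 of 12 helicase genes (Mcm2, Mcm3, Mcm5, Mcm6, Mcm7 and Gins2), 3 of 8 licensing genes (Orc6, Gmnn and Cdt1), Fen1 and Lig1, Slbp and Ccne2, and Prim1. On this unthinned scale Orc3 was the one tested member with a difference below 0, of -0.0034. In thinned steps the early-to-late ratios below 1 were instead those of Orc2 (0.844), Orc4 (0.810), Orc5 (0.945) and Pole2 (0.743). Orc3 had 1.91, and the intervals of all these genes held 1. After thinning every cell to 1300 steps, 11 members stayed 0.2 or more above late cells, against 2.70% of all genes.

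In fold terms the early-to-late change ran from 1.80 to 2.89 across the groups. It was 1.89 for licensing (1.60 to 2.23), 1.80 for the polymerases (1.47 to 2.23), 1.80 for the clamp group (1.66 to 1.95), 1.93 for nucleotide supply (1.77 to 2.11), 2.33 for the lagging strand pair (1.84 to 2.98) and 2.35 for the helicase (2.06 to 2.69). Entry genes at 2.89 (2.38 to 3.54) lay above the licensing, polymerase, clamp and nucleotide groups beyond their intervals, and the helicase interval lay above that of the clamp group. Stage and phase are mixed in these folds, and within DPbla-like cells the helicase had 1.91 (1.59 to 2.30), the clamp group 1.91 (1.73 to 2.12) and entry genes 2.83 (2.22 to 3.62). In ISP-like cells they had 1.66 (1.32 to 2.12), 1.38 (1.18 to 1.62) and 2.66 (1.74 to 4.25), so that the helicase was not above the clamp group beyond the intervals in either stage, while entry genes were in both. Without Pclaf, over all blasts, the clamp group had 2.33 (2.04 to 2.67), and without Slbp, which holds 79.9% of the entry steps, the cyclin E genes had 6.39 (3.60 to 12.3). Averaged over the genes of a group in each cell, the helicase had a mean of 0.44 ± 0.22 log2 units (SD over cells) early and 0.18 ± 0.15 late, and nucleotide supply 1.56 ± 0.41 and 0.93 ± 0.56. The log2 differences ran from 0.088 for the polymerases and 0.13 for licensing to 0.26 for the helicase (0.14 without ISP-like cells), 0.44 for the lagging strand, 0.49 for the clamp group, 0.53 for entry genes and 0.63 for nucleotide supply. Polymerase genes thus lay within 0.2 in 8 of 9 cases, although their summed steps were 1.80-fold higher early.

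Groups also differed within the early cells. The helicase had 1.63-fold more steps in G1/S than in S cells (1.43 to 1.87), while nucleotide supply had fewer, at a ratio of 0.849 (0.776 to 0.928), as did the clamp group at 0.905 (0.833 to 0.984). In the clamp group this direction rested on Pclaf, at 0.785, and without it the ratio of the other 6 genes was 1.1 (0.963 to 1.25). Pcna and Rfc1 to Rfc4 lay above 1 and Rfc5 at 0.747, and of these 6 only the interval of Rfc3 left out 1. Without their most abundant genes, Mcm7 and Dut, the helicase had 1.67 (1.44 to 1.95) and nucleotide supply 0.716 (0.633 to 0.810). Licensing (1.06, 0.893 to 1.26), polymerases (1.03, 0.829 to 1.29), lagging strand (1.12, 0.892 to 1.42) and entry genes (1.08, 0.907 to 1.29) did not differ beyond counting error. Without cluster 10 the clamp ratio was 0.945 and its interval held 1 (0.869 to 1.03). The helicase and nucleotide contrasts kept their direction within each stage. For the helicase the ratio was 1.36 in ISP-like (1.13 to 1.65) and 1.38 in DPbla-like cells (1.07 to 1.78), and for nucleotide supply it was 0.873 (0.765 to 0.998) and 0.830 (0.703 to 0.977).

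**Figure D2:**
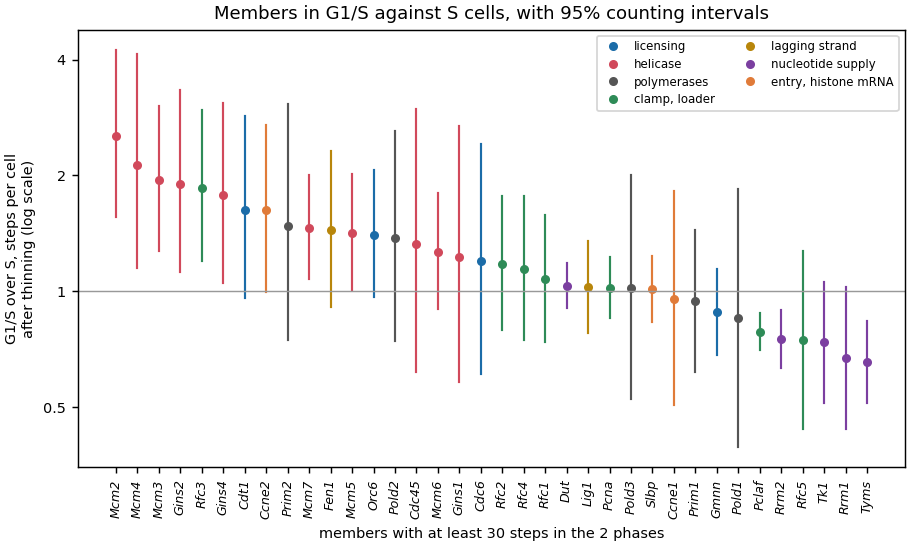
Ratio of thinned steps per cell in G1/S over S blasts (log scale, points) with 95% counting intervals (bars) for each member with enough steps, coloured by group and ordered by ratio. Helicase genes led by Mcm2 (2.53) fill most of the left end, and Pclaf, Rrm2 and Tyms (0.655) lie below 1 at the right.

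Among single genes, over the blasts of both stages, Mcm2 had the highest G1/S over S ratio, 2.53 (1.56 to 4.24), with 28.9% of G1/S, 13.4% of S, 11.3% of G2/M and 4.40% of M cells above 0 after thinning (73.1%, 55.4%, 41.3% and 28.3% before). The M share was close to the 4.91% of DPre-like cells. Mcm10, on 18 steps in G1/S and 6 in S cells, had 2.39 with an interval that held 1 (0.909 to 7.36). Mcm4 was at 2.13 (1.15 to 4.14), Mcm3 at 1.94 (1.27 to 3.03), Gins2 at 1.90 (1.12 to 3.33) and Gins4 at 1.78 (1.05 to 3.08). Mcm7 at 1.46 (1.08 to 2.00) and Mcm5 at 1.42 (1.01 to 2.02) were lower, and for Mcm6 at 1.27 (0.897 to 1.80) the interval held 1. The 6 subunits of the one ring therefore had wide and overlapping intervals. Outside the helicase, the loader subunit Rfc3 had a ratio of 1.86 (1.2 to 2.96). Most of these intervals held 1 within a stage: over the 47 members 8 intervals lay above 1 in all blasts, 1 in ISP-like cells and 1 in DPbla-like cells. In the same order 3, 1 and 2 intervals lay below 1. No share over all genes is given for this ratio. Mcm2 had 2.30 in ISP-like (1.14 to 5.26) and 2.15 in DPbla-like cells (0.883 to 5.10), Mcm7 had 1.43 (0.91 to 2.33) and 1.27 (0.709 to 2.21), and Mcm6 had 0.889 (0.564 to 1.44) and 1.60 (0.827 to 3.02). The one interval above 1 in DPbla-like cells was that of the primase gene Prim2, at 6.16 (1.72 to 27.4), named after its value was seen.

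On the deposited log2 scale, which was not thinned, Mcm3 had means of 0.81 ± 0.68 (SD over cells) in G1/S, 0.45 ± 0.58 in S, 0.34 ± 0.50 in G2/M and 0.19 ± 0.40 in M cells. Mcm4 had 0.32 ± 0.49, 0.22 ± 0.39, 0.16 ± 0.31 and 0.10 ± 0.25 in the same order. Mcm5 had 0.94 ± 0.70, 0.62 ± 0.64, 0.40 ± 0.52 and 0.22 ± 0.40. The means of these ring subunits were ordered alike, with wide overlap between single cells. Mcm6 had 0.96 ± 0.66, 0.70 ± 0.69, 0.40 ± 0.54 and 0.19 ± 0.37, and Mcm7 had 1.1 ± 0.69, 0.86 ± 0.67, 0.66 ± 0.58 and 0.43 ± 0.56. Gins3, a subunit of the GINS complex that joins the ring in the active helicase, did not follow that order, with means of 0.071, 0.042, 0.067 and 0.028 and values above 0 in 22.3%, 19.1%, 20.0% and 10.7% of cells before thinning.

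At the other end, Tyms, the thymidylate synthase, had mean log2 values of 1.23 ± 0.77 (SD over cells) in G1/S, 1.66 ± 0.74 in S, 1.08 ± 0.74 in G2/M and 0.45 ± 0.60 in M cells. Its thinned shares were 42.6%, 57.3%, 43.8% and 17.0%, its DPre-like share was 5.61%, and its G1/S over S ratio was 0.655 (0.513 to 0.836). Rrm2 was highest in S in the same way, with mean log2 values of 2.00 ± 0.86, 2.39 ± 0.74, 2.08 ± 0.99 and 1.06 ± 0.96 and a ratio of 0.751 (0.633 to 0.892). Pclaf had 3.19, 3.62, 3.20 and 2.37 and a ratio of 0.785 (0.702 to 0.877), and was still above 0 in 76.1% of M cells after thinning. Dut did not share the S-phase peak: its values were 3.00, 2.80, 2.34 and 1.56, with a ratio of 1.03 (0.905 to 1.18). The large reductase subunit Rrm1 ran later, at 0.48, 0.66, 0.68 and 0.33, with 19.8%, 24.2%, 32.5% and 15.7% of cells above 0 after thinning. Its early minus late difference of 0.11 was the smallest of the group.

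Most other named members fell from S through G2/M to M. Pcna stood at 2.16 ± 0.77 (SD over cells) in G1/S, 2.22 ± 0.87 in S, 1.45 ± 1.00 in G2/M and 0.61 ± 0.72 in M on the log2 scale, and 70.1%, 68.8%, 55.0% and 22.6% of cells were above 0 after thinning. Its early minus late difference of 1.29 was the largest of the 46. Rfc5, with the smallest difference of the clamp group (0.14), had 0.34, 0.38, 0.29 and 0.18. Lig1 stood at 1.19, 1.26, 0.81 and 0.43, and the flap endonuclease gene Fen1 at 0.43, 0.42, 0.23 and 0.19. Prim1, the catalytic primase subunit, had 0.42, 0.46, 0.33 and 0.15, and was the one polymerase group gene past 0.2. Pole2, the second subunit of polymerase ε, was above 0 in 3.05%, 3.18%, 3.75% and 3.77% of cells after thinning, and a change with phase was not detectable at this depth.

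Licensing genes split into those seen mainly in early cells and those level through G2/M. Cdc6 had mean log2 values of 0.26 in G1/S, 0.097 in S, 0.038 in G2/M and 0.027 in M cells, and 10.7%, 8.92%, 0% and 2.52% of cells above 0 after thinning. Before thinning, 12.5% of the G2/M cells were above 0. At the thinned depth the count of 0 allows a share of up to 3.75%, taken as 3 counts over the 80 cells. The exact interval reached 4.51%. Cdt1 went from 20.8% and 12.7% of cells to 6.25% and 1.89%, with 3.74% in DPre-like cells. Geminin, the Cdt1 inhibitor, was level instead: 47.2%, 49.0% and 51.3% of G1/S, S and G2/M cells were above 0, and 23.9% of M cells. Orc6, with the largest difference of the group (0.38), had 34.0%, 26.8%, 28.8% and 16.4%. Orc3 had the smallest (-0.0034), with 3.55%, 6.37%, 1.25% and 3.15%. Orc1 was above 0 in 9.61% of early and 4.18% of late cells before thinning and was not tested. By phase it was above 0 in 14.7% of G1/S (10.1 to 20.5), 3.18% of S, 5.00% of G2/M and 3.77% of M cells (1.4 to 8.03).

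Among the entry genes, Slbp, which binds the stem-loop of histone mRNA, had mean log2 values of 1.88, 1.83, 1.35 and 0.52 from G1/S to M and the largest difference of its group, 1.05. Cyclin E genes were steeper in share: Ccne2 was above 0 in 21.3%, 15.3%, 3.75% and 1.89% of cells after thinning, and Ccne1 in 11.7%, 11.5%, 2.50% and 1.26%. In DPre-like cells the Ccne2 share was 0.701%. The late Ccne2 shares rest on 3 cells each, and their intervals were 0.780 to 10.6% in G2/M and 0.391 to 5.41% in M. Those of Ccne1 rest on 2 cells each.

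To place the groups without phase borders, each cell with a phase was given an angle from its 4 z scores, with G1/S at 0°, S at 90°, G2/M at 180° and M at 270°. The mean direction of thinned steps was 29.2° for the helicase, 57.3° for licensing, 59.0° for the lagging strand, 63.5° for the polymerases, 66.1° for entry genes, 67.9° for the clamp group and 78.0° for nucleotide supply. Single members were spread around these values. In the clamp group Pclaf (80.6°) and Pcna (68.0°) had the most steps, while Rfc2, Rfc3 and Rfc4 lay at 15.2°, 20.3° and 17.1°. Among entry genes Slbp lay at 73.3°, Ccne2 at 55.1° and Ccne1 at 20.3°. Without the member with the most steps the clamp group was at 54.9°, entry genes at 44.9°, licensing at 33.6°, nucleotide supply at 91.4° and the helicase at 28.9°. In DPbla-like cells alone the helicase was again first, at 15.6°, and nucleotide supply last, at 71.3°. In ISP-like cells the helicase was first at 41.5°, and nucleotide supply at 87.8° was passed by the polymerases at 110.7°. The bins held 18 to 140 cells, the fewest at 315°, and only 7 or 8 in the smallest bin within a stage. These directions carry no error, and those between licensing and the clamp group lie close together.

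**Figure D3:**
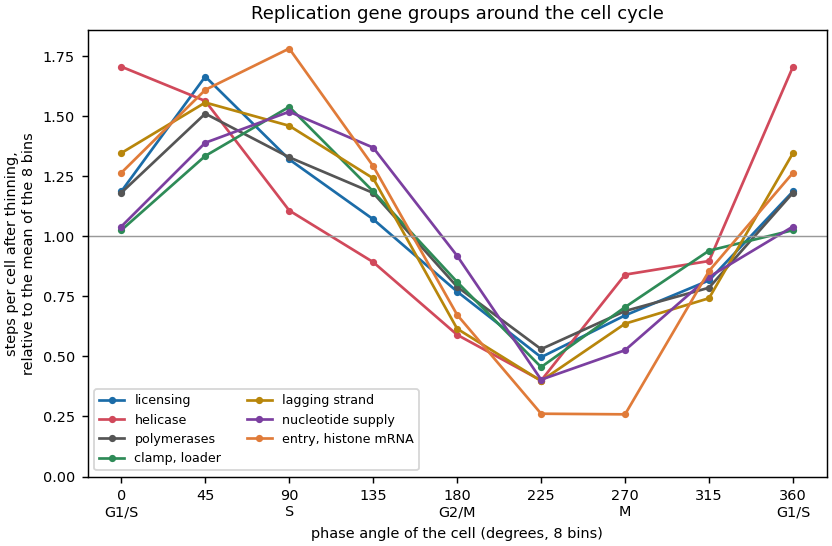
Thinned steps per cell of each gene group, relative to the mean of the 8 bins (vertical axis), against the phase angle of the blasts in bins of 45° (horizontal axis, first bin repeated at 360°). The helicase peaks in the 0° bin, licensing, polymerases and lagging strand at 45°, and clamp, nucleotide supply and entry genes at 90°. The curves follow abundant members: without Slbp the entry genes peak at 45°, and of the clamp group Rfc1 and Rfc3 peak at 45° and Rfc2 at 315°.

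Seen cell by cell, more subunits of the Mcm2–7 ring were left after thinning in G1/S than in later phases. Before thinning, all 6 were above 0 in 24.9% of G1/S (19.0 to 31.5), 17.8% of S (12.2 to 24.7), 15.0% of G2/M and 4.40% of M cells, against 0.234% of DPre-like cells. In ISP-like cells alone this share was not highest in G1/S, at 28.9%, 41.5%, 47.6% and 22.2%, with deeper cells in the later phases, and in DPbla-like cells it was 7.89%, 5.77%, 3.39% and 2.13%. After thinning the mean number of the 6 was 1.92, 1.32, 1.03 and 0.64, against 0.35 in DPre-like cells, and no cell held all 6. Within stages that mean was 2.04, 1.64, 1.48 and 1.11 in ISP-like and 1.42, 1.15, 0.86 and 0.58 in DPbla-like cells. Rfc1 to Rfc5 had means of 1.23, 1.08, 0.74 and 0.59 of 5, a shallower decline, and Gins1 to Gins4 had 0.59, 0.38, 0.28 and 0.18 of 4. All 6 Orc subunits were not seen together in any cell of these classes, also before thinning.

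The helicase also differed between the 2 blast stages in G1/S, and in S only with cluster 9 included. ISP-like cells had 1.46-fold more helicase steps than DPbla-like cells in G1/S (1.17 to 1.83) and 1.48-fold more in S (1.18 to 1.85). Nucleotide supply did not differ beyond counting error, at 1.01 (0.863 to 1.19) and 0.961 (0.836 to 1.1), nor did the clamp group at 1.07 (0.921 to 1.24) and 1.05 (0.924 to 1.19). Licensing had ratios of 1.29 in G1/S (0.946 to 1.78) and 1.43 in S (1.09 to 1.86), and the lagging strand pair 1.26 (0.844 to 1.95) and 1.60 (1.11 to 2.30), with the intervals above 1 in S and not in G1/S. These ratios depended on the clusters whose names were not firm. Of the G1/S cells, 72 of the 159 ISP-like ones came from cluster 9 and 19 of the 38 DPbla-like ones from cluster 10. Cluster 9 had 3.66 helicase steps per cell, against 2.77 in cluster 1, the other ISP-like cluster. Without cluster 9 the helicase ratio was 1.4 in G1/S (1.11 to 1.79) and 1.28 in S (0.971 to 1.67), and the interval in S held 1. Without it the licensing ratio in S was 1.2 (0.862 to 1.65) and that of the lagging strand pair 1.46 (0.948 to 2.23), and the clamp group was lower in ISP-like cells in S, at 0.811 (0.686 to 0.954). Without cluster 10 the helicase ratio in G1/S was 2.21 (1.54 to 3.28), and the clamp group and nucleotide supply were lower in ISP-like cells, at 0.772 (0.650 to 0.922) and 0.809 (0.667 to 0.988).

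Median detected genes in G1/S were 2720 for the ISP-like and 2342 for the DPbla-like class, and 3279 and 2275 in S.

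Early and late cells differed less in ISP-like than in DPbla-like cells for several genes. The largest such gaps were in Pcna (early minus late 0.58 in ISP-like, 1.34 in DPbla-like cells), Dut (0.34 and 1.08), Pclaf (0.18 and 0.91) and Tyms (0.32 and 0.99). Mcm5 went the other way, with 0.51 and 0.26, as did Gins2 with 0.32 and 0.085. Geminin was level in ISP-like cells, at 1.23 early and 1.25 late, and fell from 1.25 to 0.85 in DPbla-like cells. In steps the polymerase group had an early-to-late ratio of 1.00 in ISP-like (0.713 to 1.44) and 1.99 in DPbla-like cells (1.5 to 2.64), and nucleotide supply 1.38 (1.16 to 1.64) and 2.19 (1.96 to 2.45). Late ISP-like cells numbered only 39, and at medians of 3786 detected genes in G2/M and 3824 in M they were deeper than early ones. The part of this depth in the difference was not tested.

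**Figure D4:**
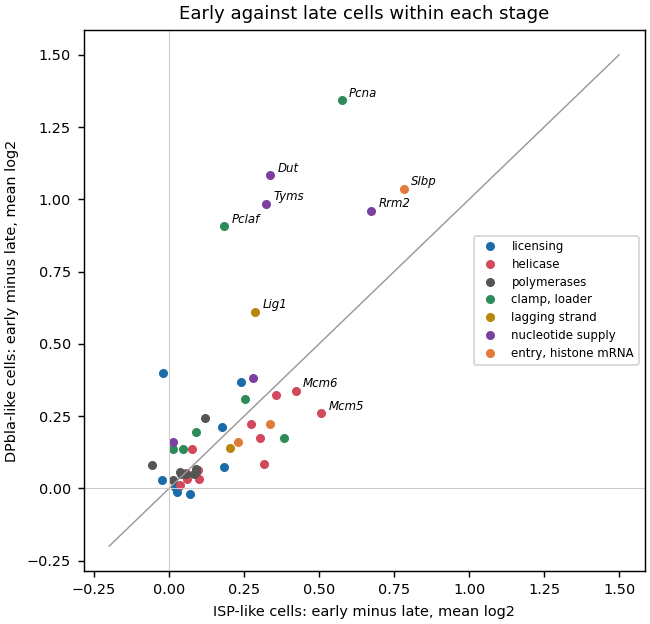
Early minus late difference in mean log2 value of each member in DPbla-like cells (vertical axis) against that in ISP-like cells (horizontal axis), coloured by group, with a line of equality. Pcna (0.58 and 1.34), Dut, Pclaf and Tyms lie above the line and Mcm5 (0.51 and 0.26) below it.

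Other genes of the pathway, 53 names of which 52 were measured, were counted in the same way. Of the 50 tested, 16 were higher early, against a background of 3.47% of all genes, and 1 was lower, against 3.07%. After thinning every cell to 1300 steps, 6 were higher and 0 lower, against 2.70% and 2.59%. Chromatin assembly and maintenance methylation genes had 5 of 10 higher, led by the helicase-like Hells (difference 0.62) and by Uhrf1 (0.52), which brings the maintenance methylase to DNA, while Asf1a (0.16) and Supt16 (0.056) were least. Other nucleotide synthesis genes had 7 of 15, from Nme1 and Dctpp1 (0.56 each) to Cad (0.023), and Samhd1 (0.0014) did not pass the filter. Fork accessory and checkpoint genes had 3 of 17, with Tipin (0.67) and Dtl (0.43) at the top and Chtf8 (-0.028) near 0. Dbf4, whose product activates the Cdc7 kinase that fires origins, was the one lower gene, at -0.25. Of 8 other polymerase and RNase H genes only Pole4 (0.32) was called, with Pole3 at 0.15 and Rnaseh2c (-0.016) and Pold4 (-0.032) at the bottom. Against DPre-like cells, 24 of the 49 tested were higher in blasts, including 8 of 10 chromatin genes, against a background of 13.5%, and 0 were lower, against 2.32%. After thinning, 9 were higher, against 7.44%.

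Open chromatin at the members' starts varied little between sorts. All 50 members had at least 1 scATAC-seq peak centred within 2000 bp of a start, 133 peaks in all, and counts in each of the 4 sorts. Of all 21840 protein-coding genes, 62.3% had such a peak. The peaks are 4000 bp wide and overlap, so 1 fragment can be counted more than once. They took 0.240% of counts in 182 DN cells, 0.266% in 125 DP cells and 0.239% in 235 CD4 and CD8 cells together. The ratio to DP was 0.904 for DN (0.845 to 0.967) and 0.90 for the single-positive sorts (0.841 to 0.963), where all protein-coding starts had 1.00 and 0.960. For cells whose label numbers were 30000 or above (86 DN and 29 DP cells) the DN ratio was 1.03 (0.862 to 1.24). The labels name no gate for blasts in the DP sort, so dividing and resting DP cells cannot be told apart there.

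By group, the DN to DP ratio ran from 0.810 for Fen1, Lig1 and Rpa1 to Rpa3 together (0.665 to 0.990) and 0.822 for the clamp group (0.681 to 0.996) to 0.927 for nucleotide supply (0.739 to 1.17). Entry genes were the exception at 1.66 (1.23 to 2.29). Ccne2 led them: its 4 peaks had 76 counts in DN, 9 in DP, 14 in CD4 and 21 in CD8 cells, or 68.6, 18.8, 25.1 and 42.5 per 1000000 counts. Overlapping peaks can count 1 fragment more than once, so the interval of the entry group may be too narrow. Pcna had 127.2, 177.7, 143.3 and 151.6 per 1000000, and Mcm7 133.5, 152.6, 129.0 and 133.4.

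**Figure D5:**
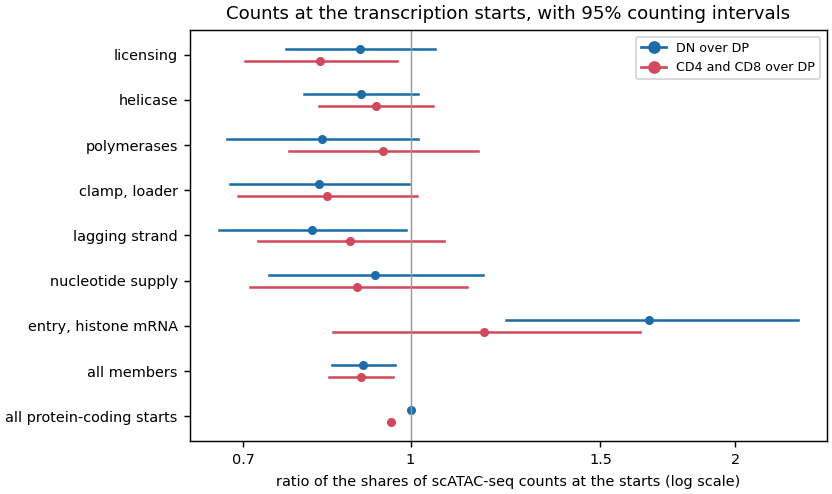
Ratio of the share of scATAC-seq counts at transcription starts in DN over DP cells (blue) and in CD4 and CD8 over DP cells (red) on a log scale, for each gene group, all members and all protein-coding starts, with 95% counting intervals (bars). The entry group lies above 1 in DN cells (1.66), and all members lie near 0.90 in both comparisons.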

How the data were processed

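Thymus cells were captured by the authors with a droplet 3′ kit and aligned with Cell Ranger 1.3.1 (processing notes of the submitters). Genes and cells were filtered, values were quantile-normalized across cells, and the authors deposited them on a log2 scale with zeros kept at 0. Of the 1993 cells, 7 had over 4500 detected genes, the limit given for the study. Detected genes ran from 830 to 5025 per cell (median 1484). Because quantile normalization gives a gene seen once a higher value in a shallow cell, each value was also replaced by its place in the ordered different values of the cell (its step), thinned to 1300 per cell with a fixed seed.

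The scATAC-seq table deposited by the authors holds counts of fragments in 138317 peaks per cell, of which 1446 columns of cells were not used, being total thymocytes or cells whose sort the labels do not give. Totals were 1108749 counts in DN, 478264 in DP, 558091 in CD4 and 494645 in CD8 cells. The genome build of the peaks is not given in the sources used here. Against GRCm38 starts, 57.6% of 21840 protein-coding genes had a peak centre within 500 bp, and 11.5% did after a shift of 20000 bp.

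Clusters of cells came from Seurat 5.3.0 under R 4.3.3 (20 components, resolution 2, 15 clusters) on 1243 variable genes, leaving out members, pathway genes and phase genes other than markers. Each cluster was named from its mean marker z score, and ISP or DPbla was allowed only where at least 50% of cells had Mki67 above 0. No doublet caller was run and no cell was removed, and an alternative dropped the deepest 5% of each cluster. Phases used z scores above 1. Shares have exact binomial intervals, folds of steps and of counts have exact conditional intervals. Python 3.11.15, numpy 2.4.6, scipy 1.17.1 and pandas 2.3.3 were used, and the steps, their thinning and their ratios were tested on simulated data. The other calculations had no such test.

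Any member could be named. Full values are given for the members of each group with the largest and smallest early minus late difference and the largest blasts minus DPre difference, and for Pcna, Mcm2 to Mcm7, Ccne1, Ccne2, Gmnn, Rrm2 and Tyms, and for pathway lists the 2 genes with the largest and the 2 with the smallest difference. The other members given with values were picked after these were seen. The members and lists were chosen with earlier results of these data known. Alternatives changed the clustering, the phase threshold, the value scale, the call threshold, the peaks and the motif. Rpa1 to Rpa3 and the pathway gene Recql4 were not analysed here in scRNA-seq.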

Additional observations from a re-analysis of the deposited data

How the results depend on the processing

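Over 311 recomputed values, 267 stayed within 1.5-fold of the value reported or, for ratios, within its counting interval, 40 moved further and 4 changed side. The 4 are ratios whose reported interval left out 1. Other ratios that crossed 1, such as those of the clamp group between ISP-like and DPbla-like cells, are counted as moved or, within their interval, as stayed. Thinning every cell to an equal number of steps lowers all log2 values. Early minus late differences were then 0.069 for licensing, 0.12 for the helicase, 0.046 for the polymerases, 0.25 for the clamp group, 0.22 for the lagging strand, 0.35 for nucleotide supply and 0.25 for entry genes. Blasts minus DPre differences were 0.088, 0.13, 0.067, 0.40, 0.25, 0.52 and 0.26 in the same order. The members higher early fell from 23 to 11, with 2.70% of all genes, and those higher in blasts from 25 to 13, with 7.44%.

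Without ISP-like cells the helicase differed by 0.14 early against late and by 0.15 between blasts and DPre-like cells. With values of 1 or less set to 0, the polymerases differed by 0.048 and 0.043. In scATAC-seq cells with label numbers from 30000, the DN over DP ratio changed side, to 1.03, and the single-positive ratio was 0.807. With GGCGGG or GGCGGC as the motif, 36 of 41 member genes matched, and 44.3% of all genes did. The cause of these changes was not tested.

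Counts of members lower early or in blasts were 0 in every alternative. At the main setting 3.07% and 2.32% of all genes were lower, so a count of 0 among 46 members lies near that share. Leaving out cluster 9 or cluster 10, chosen after seeing the data, moved no early minus late or blasts minus DPre difference or count by over 1.5-fold. It did move ratios of ISP-like over DPbla-like cells: for all members, 1.13 in G1/S became 0.964 without cluster 10 and 1.12 in S became 0.946 without cluster 9. Without Pclaf, also left out after seeing the data, the clamp ratio of G1/S over S changed side, from 0.905 to 1.1. No paired analysis was possible because the RNA data are 1 library and no cell names an animal. Depth limits the members near 0, among them Orc1 and Pole2, with 6 thinned steps each over the G1/S cells, and Orc3 with 7. Stage names are rebuilt from markers, most M cells are DPbla-like, and stage and phase can be told apart only as far as the values within each stage go.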
